A study of Caenorhabditis elegans with 3 samples.

Results

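The genes described here are 10 kinesins of Caenorhabditis elegans, taken by symbol from a list of 6 motors of the dividing cell's spindle (klp-7, klp-15, klp-16, klp-18, klp-19 and bmk-1) and 4 transport motors (unc-104, unc-116, osm-3 and klp-11). All 10 matched 1 record each among the 19985 protein-coding genes of the annotation. The question was whether DPL-1, the DP subunit of DNA-binding E2F-DP dimers, was found at their promoters. Chromatin immunoprecipitation with sequencing (ChIP-seq) had been done with an anti-GFP antibody on whole young adult hermaphrodites of strain YL507, which stably express DPL-1 tagged at its C terminus with GFP and FLAG. The 3 biological replicates form 1 group, all carry the tagged protein and come from 1 strain, and no untagged or input sample was analysed here. Because whole animals were used, germline and somatic binding cannot be told apart, and the age in hours or days is given as unknown.

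Kinesins are motor proteins that use ATP to move along microtubules or to take them apart. In a dividing cell some of them build the spindle and move chromosomes, while in neurons others carry synaptic vesicle precursors along the axon or build sensory cilia. Young adult hermaphrodites hold few dividing somatic cells, and their gonad holds mitotic germ cells, meiotic germ cells and oocytes. E2F-DP dimers are best known as regulators of genes needed for cell division.

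The peaks are those of the authors' list thresholded by the irreproducible discovery rate (IDR), a procedure based on how alike peaks rank in replicates. The list held 3295 peaks, which were the 3295 strongest of the 30000 in the authors' relaxed list from the pooled replicates. A single IDR peak was not always matched in every replicate. A summit, the position of highest signal, within 500 bp of the annotated start of a gene counted as a peak at its 5' end. Signal is the authors' peak strength in deposited units, comparable only within a list, and rank 1 is the strongest. The relaxed lists held 28383 peaks for replicate 1 and 30000 each for replicates 2 and 3, and sequencing depth is unknown.

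The DNA under the summits that matter most for the results is shown on the strand of the kinesin gene, in ce11 coordinates from the RefSeq copy of that assembly. Each window runs 50 bp to either side of the summit, cut at the gene's 5' end for klp-19. Capitals mark matches on either strand to an E2F-like motif, which is TTCCCGC or TTGGCGC or TTCGCGC or TTGCCGC, and to the cell cycle homology region (CHR) motif, TTCGAA or TTTGAA, and no word of either contains one of the other. The klp-19 and distal unc-116 windows hold 1 match to each motif, that of bmk-1 1 CHR match, and that of klp-13, a kinesin outside the list, 1 E2F-like match. The others are shown because they carry peaks with neither motif.
klp-19 (chrIII:13307260-13307356, minus strand): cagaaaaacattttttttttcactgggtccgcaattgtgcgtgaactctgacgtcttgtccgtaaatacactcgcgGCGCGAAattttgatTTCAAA
klp-18 (chrIV:7039601-7039701, plus strand): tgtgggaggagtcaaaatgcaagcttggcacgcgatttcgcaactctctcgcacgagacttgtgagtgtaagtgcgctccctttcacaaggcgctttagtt
bmk-1 (chrV:14457220-14457320, minus strand): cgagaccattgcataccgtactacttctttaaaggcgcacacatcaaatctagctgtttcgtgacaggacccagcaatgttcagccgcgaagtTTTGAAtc
klp-7, intron (chrIII:10807373-10807473, plus strand): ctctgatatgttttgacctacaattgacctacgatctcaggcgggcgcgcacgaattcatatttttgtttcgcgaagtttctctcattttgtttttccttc
unc-116, proximal (chrIII:8355225-8355325, minus strand): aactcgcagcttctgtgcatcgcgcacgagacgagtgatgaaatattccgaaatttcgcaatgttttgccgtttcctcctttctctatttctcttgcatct
unc-116, distal (chrIII:8356623-8356723, minus strand): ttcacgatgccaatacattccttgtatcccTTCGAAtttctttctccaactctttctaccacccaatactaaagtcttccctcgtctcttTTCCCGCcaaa
unc-104 (chrII:6994867-6994967, plus strand): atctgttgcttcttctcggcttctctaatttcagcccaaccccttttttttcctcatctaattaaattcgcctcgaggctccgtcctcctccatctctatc
klp-13 (chrX:5984731-5984831, plus strand): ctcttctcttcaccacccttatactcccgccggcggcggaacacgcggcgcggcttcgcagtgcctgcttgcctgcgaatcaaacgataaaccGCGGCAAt

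Of the 10 kinesin genes, 5 carried a DPL-1 peak of the IDR list at their 5' end. These were klp-19, klp-16, klp-15 and bmk-1 of the spindle group and unc-116, the heavy chain of kinesin-1, of the transport group. Over all 19985 protein-coding genes the share was 11.8%. The share was 66.7% for spindle kinesins (4 of 6, exact binomial 95% interval 22.3 to 95.7). For transport kinesins it was 25% (1 of 4, 0.631 to 80.6). The difference was 41.7 percentage points between small groups with overlapping intervals. These intervals treat genes as independent draws, while the genes were chosen with earlier results of these data known. They therefore do not measure the uncertainty of the difference. The median signal of the 5 peaks was 89.9, against 98.0 for the 1833 IDR peaks at 5' ends in general, so the kinesin peaks were of ordinary strength. With only the IDR peaks that were also in the top 3295 of both other replicates, leaving out any 1 replicate gave 2 of 6 spindle and 1 of 4 transport genes, with backgrounds of 7.58%, 6.28% and 7.32% without replicate 1, 2 or 3. Only klp-19 and unc-116 were called each time. The other spindle gene was klp-15 without replicate 1, bmk-1 without replicate 2 and klp-16 without replicate 3.

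**Figure D1:**
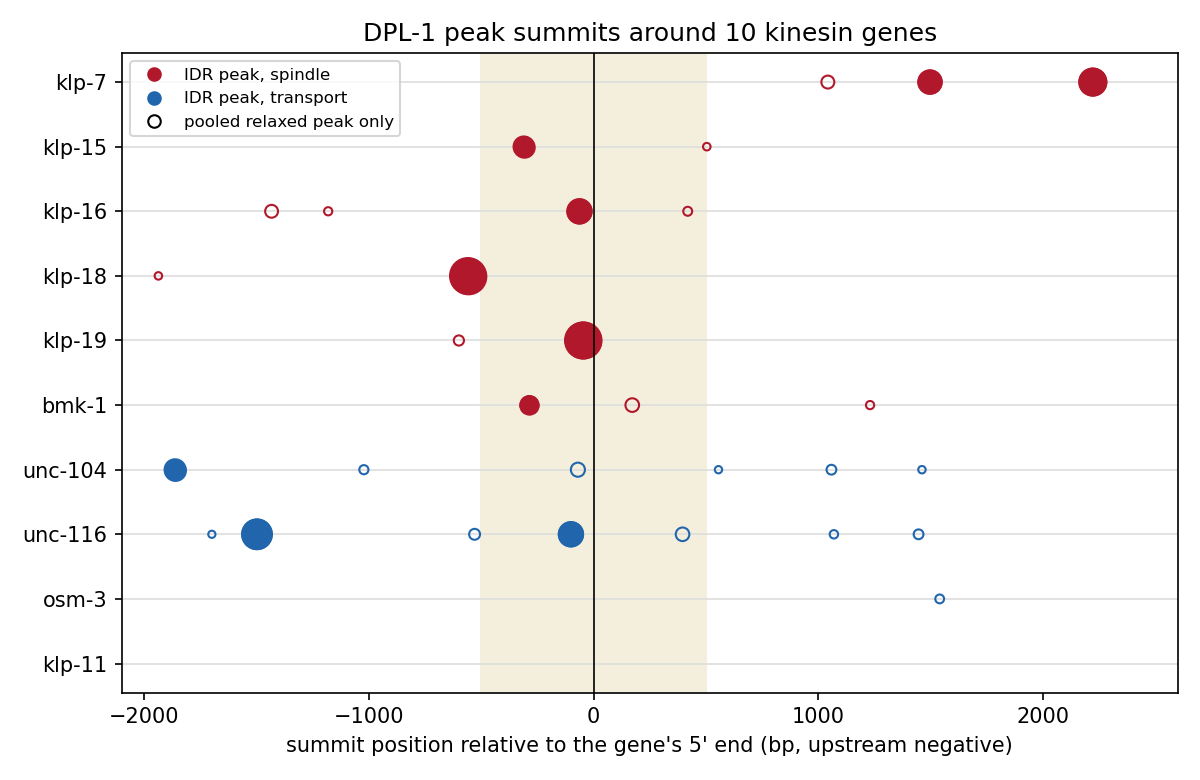
Summits of DPL-1 peaks from 2000 bp upstream of each kinesin's 5' end into the gene. The x axis is the distance from the 5' end in bp, filled circles are IDR peaks, open circles are peaks of the pooled relaxed list only, circle area is proportional to signal, and the shaded band is the 500 bp window. The klp-18 summit lies 560 bp upstream, just outside the band, and klp-11 has no peak in the range shown.

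The strongest 5' end peak of the 10 genes was at klp-19, a chromosome-associated kinesin-4 that helps push and align chromosomes (WBGene00002229, III, 13302717 to 13307259, minus strand). The peak (13307205 to 13307406) had its summit 47 bp upstream in sequence with no annotated gene, with signal 199 and rank 420. Its ranks were 609, 392 and 514 in replicates 1, 2 and 3, with signals of 36.1, 125 and 38.2 on the 3 separate scales. All 3 ranks were well inside the top 3295. The same summit lay 196 bp from the 5' end of slc-36.1, on the opposite strand. Directly above it in the order of signal among 5' end peaks stood sna-2 and directly below the promoter shared by perm-3 and swsn-6.

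The gene klp-18 encodes a kinesin-12 needed for a bipolar oocyte spindle (WBGene00002228, IV, 7040211 to 7043694, plus strand). Its upstream peak (7039542 to 7039761) was nearly as strong as that of klp-19, with signal 195 and rank 430, and ranked 795, 325 and 977 in replicates 1, 2 and 3. The summit lay 560 bp upstream of klp-18 and 71 bp from the 5' end of cogc-2, which encodes a subunit of a Golgi tethering complex, so that it did not count for klp-18. With a window of 1000 bp it did, giving 5 of 6 spindle and 1 of 4 transport genes against a background of 14.7%. In replicate 3 a further peak lay 193 bp upstream of klp-18 (rank 2698). Neither replicate 1 nor replicate 2 had a peak within 500 bp, their nearest summits lying 513 and 581 bp upstream, just past that limit. A weaker IDR peak lay in an exon near the 3' end of the gene, 3421 bp downstream of the 5' end, with signal 51.7.

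The pair klp-15 (WBGene00002225, I, 5577070 to 5579194, minus strand) and klp-16 (WBGene00002226, I, 9512452 to 9514637, plus strand) encode kinesin-14 motors, which walk towards microtubule minus ends and act in oocyte spindle assembly. The klp-16 peak (I, 9512344 to 9512487) had its summit 63 bp upstream, inside the annotated microRNA gene cel-mir-4932, with signal 89.9 and rank 1484. Its ranks were 2954, 1371 and 3351 in replicates 1, 2 and 3, so it fell just short of the top 3295 in replicate 3. The klp-15 peak (I, 5579353 to 5579656) had its summit 311 bp upstream with signal 63.9 and rank 2273. It ranked 2944 in replicate 2 and 1807 in replicate 3, and replicate 1 had no summit within 100 bp, its only peak in the window lying 190 bp upstream of klp-15 at rank 14261. Replicate 3 had a stronger peak of its own only 75 bp upstream of klp-15, at rank 1497. The other gene served was smn-1, the worm's SMN homologue, 153 bp from the klp-16 summit, and ctnb-1, 161 bp from the klp-15 summit.

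These 2 genes are near copies. Their coding sequences were 93.8% identical over 1761 aligned bases and shared a run of 87 identical bases. The 301 bp around their IDR summits shared no identical run longer than 9 bases on either strand. These windows lie at different distances from the 5' ends, so matching stretches of the copies were not compared. The 300 bp upstream of the 2 genes shared a run of 21 bases. The klp-16 peak also ran past the 5' end into the gene, and whether reads were shared there was not tested. A faint pooled peak 419 bp inside klp-16 (signal 12.3, rank 18352) lay in a coding exon, where reads of the copies may be shared, and the sources used here do not say how such reads were placed.

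The gene bmk-1 encodes the worm's kinesin-5, a motor that crosslinks spindle microtubules (WBGene00000257, V, 14453302 to 14456984, minus strand). Its IDR peak (14457118 to 14457421) was the weakest of the 5, with signal 50.6 and rank 2942, not far above the lowest signal in the list, 45.7. Its ranks in replicates 1, 2 and 3 were 3119, 7170 and 1342. The replicates thus disagreed, and replicate 2 was the low one. The summit lay 286 bp from bmk-1 and 152 bp from coh-3, which encodes a meiotic cohesin subunit. A second, relaxed peak (signal 28.6, rank 5845) lay 172 bp inside bmk-1, and at this place replicate 2 ranked higher (4523) than replicate 3 (22867), with no match in replicate 1.

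The gene klp-7 encodes a kinesin-13, which takes microtubules apart at their ends rather than walking (WBGene00002219, III, 10805925 to 10811001, plus strand). It had no IDR or pooled peak within 500 bp of its 5' end. The best single-replicate peaks there ranked 8448 in replicate 1 and 8462 in replicate 3, and replicate 2 had none. However, the gene has 2 annotated transcripts, and 2 IDR peaks lay in the intron that ends at the start of the shorter one. The stronger (10807996 to 10808299, signal 112, rank 1059) had its summit 193 bp from that start, in an exon of the noncoding gene K11D9.7, and ranked 767, 1601 and 842 in replicates 1, 2 and 3. The other (10807361 to 10807487, signal 83.3, rank 1651) lay 918 bp from it and ranked 2108, 2311 and 1071. Both were in the top 3295 of every replicate. With any transcript start in place of the gene record, klp-7 joined the genes with a peak, for 5 of 6 spindle and 1 of 4 transport kinesins against a background of 12.4%.

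Most of the spindle genes also shared an arrangement. Because the genes were chosen with earlier results of these data known, it cannot be taken as independent of their peaks. In 5 of the 6, all but klp-7, the nearest upstream 5' end belonged to a gene on the opposite strand, 216 to 631 bp away (216 at klp-16, 243 at klp-19, 438 at bmk-1, 472 at klp-15 and 631 at klp-18). All 5 had an IDR summit between the pair of 5' ends. None of the 4 transport kinesins had such a head-to-head neighbour within 1000 bp, against 17.5% of all protein-coding genes. Of the 3491 genes that have one, 33.4% had an IDR summit between the 5' ends and 33.3% had one within 500 bp, against 7.20% of all other genes. This limit of 1000 bp was chosen after the positions were seen. Which gene of a pair a peak belongs to cannot be told apart here. The nearer 5' end was the kinesin's at klp-16 and klp-19, and the neighbour's at klp-15, bmk-1 and klp-18. Counting only the nearest gene of each summit left 2 of 6 spindle and 1 of 4 transport genes, with a background of 9.05%. Of the 5 IDR peaks at members, 4 served a second gene, compared with 29.8% of all IDR peaks at 5' ends.

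Among the transport kinesins, unc-116 (WBGene00006840, III, 8351164 to 8355174, minus strand) had the only IDR peak at a 5' end. Its product, the kinesin-1 heavy chain, carries cargo in axons and also acts in the oocyte, where it helps bring the meiotic spindle to the cortex. The peak (III, 8355228 to 8355344) had its summit 101 bp upstream in sequence with no annotated gene, with signal 90.2 and rank 1478, close to that of klp-16. It ranked 1046, 1745 and 886 in replicates 1, 2 and 3. It served no other gene and, beside klp-19, was the only 5' end peak of a member in the top 3295 of all 3 replicates. A stronger IDR peak (8356521 to 8356824, signal 135, rank 827) lay 1499 bp upstream, more than 500 bp from any protein-coding 5' end. It ranked 903 in replicate 2 and 762 in replicate 3. In replicate 1 no summit lay within 100 bp, but one lay 140 bp away at rank 3904.

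The gene unc-104 encodes the kinesin-3 that carries synaptic vesicle precursors (WBGene00006831, II, 6994987 to 7010625, plus strand). It had a peak only in the relaxed list, 70 bp upstream (6994765 to 6995068), with signal 30.5 and rank 5365, under the lowest IDR signal. The best peaks in the window ranked 19835, 5766 and 3851 in replicates 1, 2 and 3, none of them in the top 3295. An IDR peak 1864 bp upstream (signal 66.7) had a match within 100 bp in replicate 2 only. Another, 8072 bp inside the gene (signal 59.6), lay in a tRNA gene within an intron.

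The kinesin-2 genes osm-3 (WBGene00003884, IV, 3796300 to 3801052, minus strand) and klp-11 (WBGene00002222, IV, 8756735 to 8762066, minus strand) encode the motors that build sensory cilia in ciliated neurons. Neither had an IDR peak anywhere from 2000 bp upstream to the end of the gene, and neither had a pooled relaxed peak at the 5' end. For osm-3 the only peak in the window was in replicate 2, at rank 24799 with signal 5.28. For klp-11 it was in replicate 3, at rank 9642 with signal 7.77, and that summit also lay 209 bp from the 5' end of F20C5.11, which overlaps klp-11 on the same strand. Both genes have further transcript starts inside the record, and relaxed peaks lay 181 bp from one of osm-3 and 244 bp from one of klp-11. The strongest relaxed peak inside osm-3 had signal 12 and that inside klp-11 signal 28.8, both in introns.

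**Figure D2:**
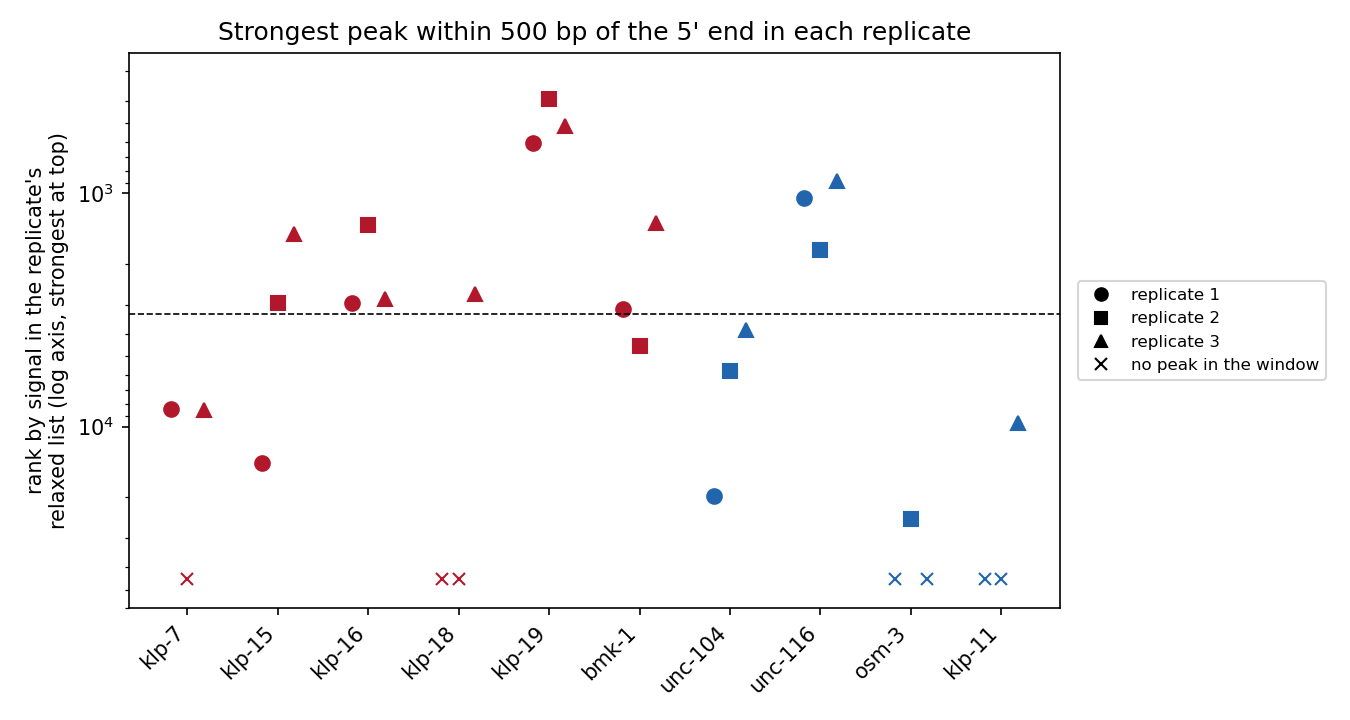
Rank by signal of the strongest peak within 500 bp of each kinesin's 5' end in the 3 replicates. The y axis is logarithmic with rank 1 at the top, symbols are replicates, red marks spindle and blue transport kinesins, crosses mark replicates with no peak, and the dashed line is rank 3295. For klp-16, klp-19 and unc-116 all 3 replicates stand above the line, while osm-3 and klp-11 each have 1 weak peak. The replicate 3 point of klp-16 (rank 2825) is a different peak, 250 bp upstream and 34 bp from the 5' end of smn-1. The replicate 3 peak at the klp-16 IDR summit ranked 3351, under the line.

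In the replicates' own top 3295 peaks, 4.67 ± 1.15 (SD, n = 3) of the 10 genes had a summit at the 5' end. Replicates 1 and 2 gave 3 spindle genes each and replicate 3 gave 5, with klp-15 and klp-18 added to those of replicate 1. The single transport gene was unc-116 in all 3. The backgrounds over all genes were 9.94%, 11.7% and 10.3% in replicates 1, 2 and 3. The share of spindle genes exceeded that of transport genes by 25 percentage points in replicates 1 and 2 and by 58.3 in replicate 3, a mean of 36.1 ± 19.2 (SD, n = 3).

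The difference between the groups became small or reversed in stricter peak sets. Within 250 bp, 2 of 6 spindle genes and 1 of 4 transport genes had an IDR peak, against 7.71% of all genes. The stronger 50% of the IDR peaks gave the same counts against 7.33%. When a peak had to be among the 3295 strongest of each replicate, those of klp-19 and unc-116 were left, 1 of 6 spindle and 1 of 4 transport genes against 5.99%. The transport count was 1 under each of these settings of the IDR list. The spindle genes that dropped out were klp-15 and bmk-1, whose peaks were weaker and farther from the 5' end, and, in the strictest set, klp-16.

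In the pooled relaxed list, which reaches down to signal 7.46, 6 of the 10 genes had a peak at the 5' end, 4 spindle genes and the transport genes unc-104 and unc-116. The background was 33.0%. The spindle genes with a relaxed peak were the same 4 as in the IDR list. Within 250 bp there were 5 genes against 23.1%, 3 of 6 spindle and 2 of 4 transport genes, so that the shares of both groups were 50%. Within 1000 bp there were 7 against 40.0%, 5 spindle and 2 transport genes. Around any transcript start there were 9, all but klp-18, against 34.9%, and the order of the groups reversed, with 5 of 6 spindle genes (83.3%) and 4 of 4 transport genes (100%). Requiring a match in both other replicates left 6, 4 and 4 genes without replicate 1, 2 or 3 (4, 3 and 3 of them spindle genes), against 15.8%, 12.8% and 15.0%.

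**Figure D3:**
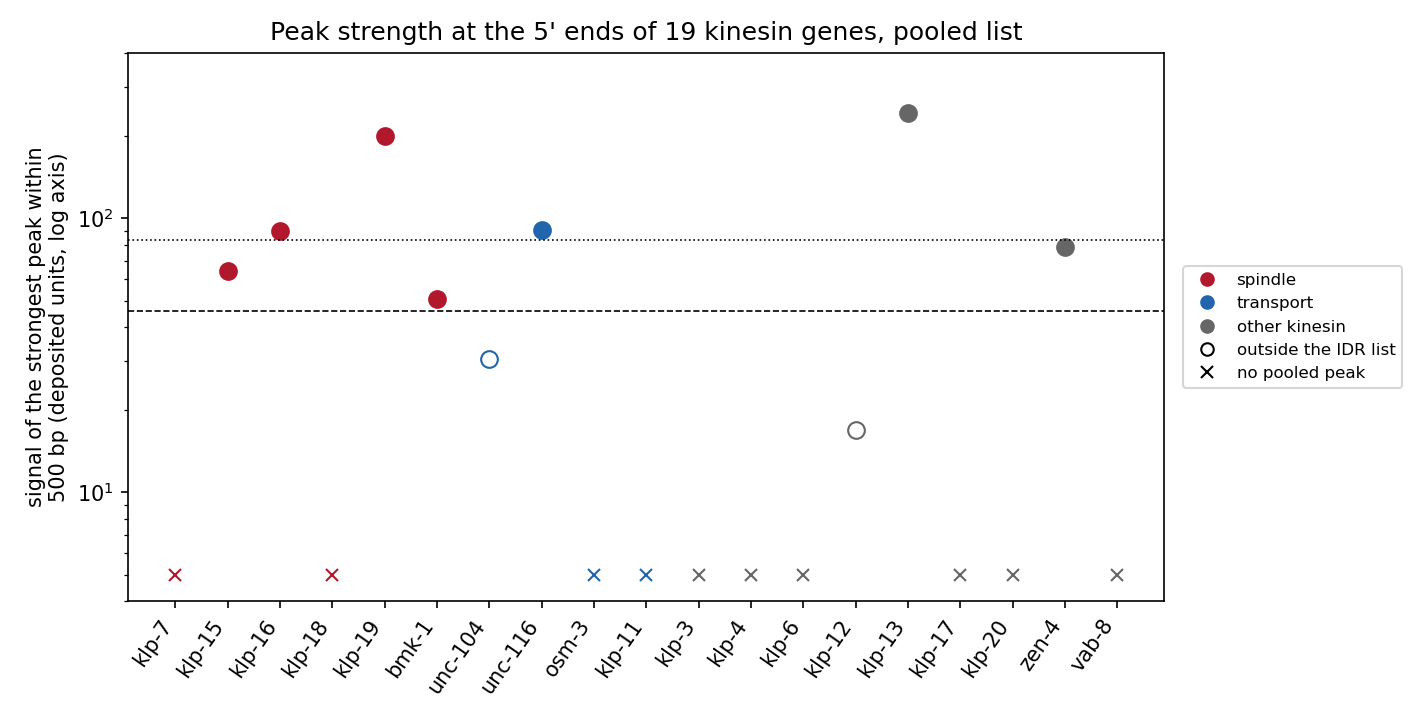
Signal of the strongest pooled peak within 500 bp of the 5' end at 19 kinesin genes. The y axis is logarithmic in deposited units, filled circles are IDR peaks, open circles lie under the IDR threshold (dashed line), the dotted line is the median of the IDR list, 83.4, and crosses mark genes with no pooled peak. The klp-13 and klp-19 peaks stand highest, at 242 and 199, and 10 genes have no pooled peak in the window.

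Beyond the 10, the annotation held 9 further kinesin genes of a list of 11. Of these, 2 carried an IDR peak at the 5' end, 22.2%. The klp-13 gene, which encodes a kinesin-8, had the strongest 5' end peak of all 19 kinesins (X, 5984668 to 5984875, 208 bp upstream, signal 242, rank 289), and it ranked 528, 209 and 720 in replicates 1, 2 and 3. The zen-4 gene encodes the kinesin of the centralspindlin complex, which acts in cytokinesis. Its peak (IV, 6117889 to 6118192, 174 bp upstream) had signal 78.1 and rank 1795 and ranked 1694, 1537 and 13352, with replicate 3 far below the other two. The other 7 kinesins of that list lacked one, although an IDR peak lay 620 bp inside klp-6 (signal 93.7), in an exon of a noncoding gene on the opposite strand. The klp-12 gene had a relaxed peak only (signal 16.8), with no summit within 100 bp in any replicate.

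Of the 5 IDR summits at the members' 5' ends, 1, that of klp-19, had an E2F-like match within 50 bp, and 2, those of klp-19 and bmk-1, had a CHR match. Over all 3295 IDR summits the shares were 14.5% for the E2F-like motif and 26.3% for CHR. Over the 26705 pooled summits outside the IDR list they were 4.53% and 32.4%. Within 100 bp klp-16 also had E2F-like matches and klp-15 a CHR match, for 2 and 3 of the 5 summits, where the shares over IDR summits were 20.5% and 47.7%. The strong klp-18 peak and the proximal unc-116 peak, both shown above, had neither motif within 50 bp. GC content within 50 bp was 38.6% at klp-15, 42.6% at klp-16 and klp-19 and 44.6% at the proximal unc-116 peak. It was 46.5% at bmk-1 and 51.5% at klp-18. The median over IDR summits was 46.5%, so that only klp-18 lay above it.

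The partners of these motors are compared in the plot of shares by gene list. Of 10 kinesin light chains, accessory subunits and adaptors, 9 had a pooled relaxed peak at the 5' end, against 33.0% of all protein-coding genes. Against 11.8% of all genes, 6 of the 10 had a summit of the IDR list there (60.0%). They were unc-16, a JIP3-like adaptor of kinesin-1 (signal 157, 89 bp upstream), unc-14, which binds UNC-116 (signal 135), unc-76, a FEZ1 homologue (signal 91.3), and kap-1, syd-2 and klc-1. The unc-16 peak ranked 273, 1021 and 666 in replicates 1, 2 and 3, and that of unc-76 790, 1833 and 1985. The unc-14 peak ranked 882 and 785 in replicates 2 and 3 and had no match in replicate 1. Of these 3, the unc-14 peak was thus the one that a replicate lacked.

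Of 17 dynein and dynactin genes, 5 had an IDR peak (29.4%), against 11.8% of all protein-coding genes. The strongest were at dnc-1, the large dynactin subunit (signal 162), and dli-1, a dynein light intermediate chain (signal 122). The next was at dnc-2, the dynamitin homologue (signal 99.8). Each of these summits was shared with another gene's 5' end. Of 18 spindle microtubule regulators, 5 had one (27.8%), led by gpr-2 (signal 173), lin-5 (signal 115) and gpr-1 (signal 113), which act together in pulling on spindle poles. The gpr-2 summit lay nearer to rgr-1 and the gpr-1 summit nearer to polk-1, and the lin-5 peak ranked 1993 and 784 in replicates 1 and 2 but 12722 in replicate 3. Of 22 genes of ciliary transport, the pathway of osm-3 and klp-11, only dyf-3 had an IDR peak (4.55%, signal 71.8). Of 15 neuronal genes, snb-1, egl-21 and rgef-1 had one (20%, signals 128, 74.4 and 45.8). The median signal of genes with an IDR peak was 77.5 for the light chains and adaptors, 99.8 for dynein and dynactin, 113 for the spindle regulators and 74.4 for neuronal genes, against 102 over all protein-coding genes with one.

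**Figure D4:**
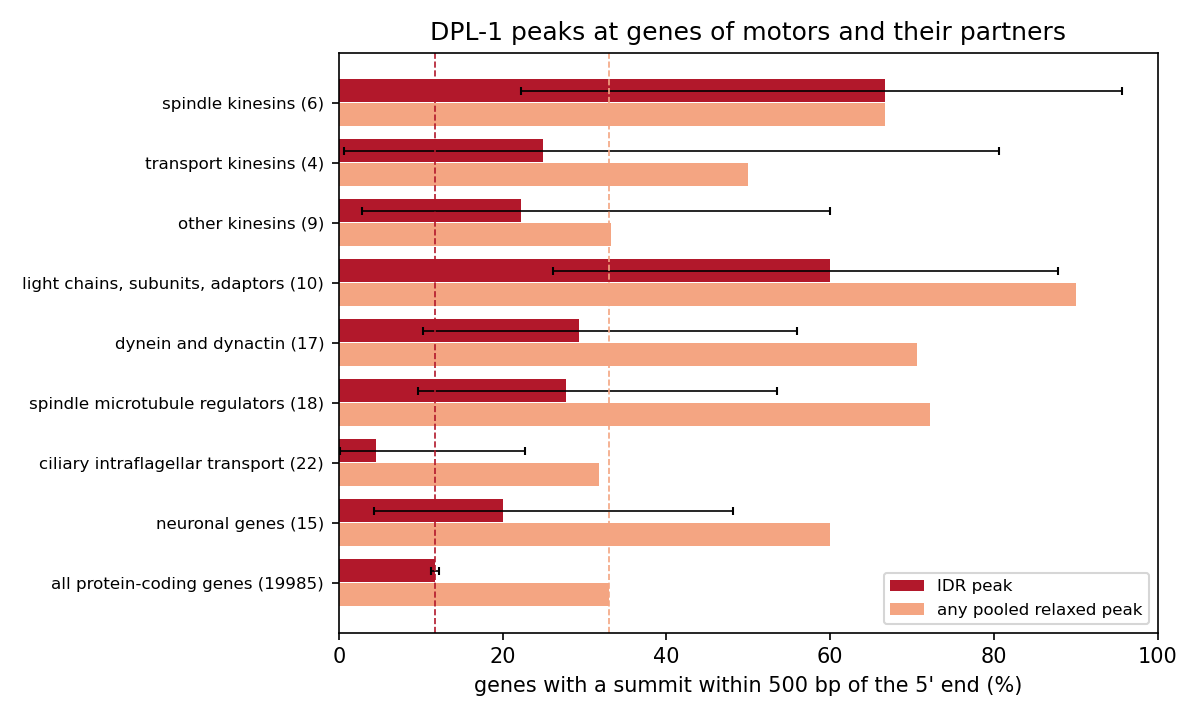
Share of genes with a DPL-1 summit within 500 bp of the 5' end in lists of motors and partners, with the number of genes in parentheses. Dark bars are IDR peaks with exact binomial 95% intervals, light bars are any pooled relaxed peak, and dashed lines mark the shares over all protein-coding genes, 11.8% and 33.0%. Spindle kinesins (66.7%) and light chains with adaptors (60.0%) have the highest IDR shares, and ciliary transport genes (4.55%) the lowest.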

How the data were processed

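DPL-1 ChIP-seq peak lists of 3 replicates were used. Per the deposited text, the authors made a relaxed list per replicate, a relaxed list from the pooled alignments and an optimal IDR list, on ce11 and ce10. Only the 5 ce11 lists were used. Aligner and peak caller are not named in the sources used here. The deposited signal of each peak is the authors' own value, and the deposited −log10 q was a single constant in the IDR list, so peaks were ranked by signal. Read depth is unknown, and intervals cover counting of genes only and treat the listed genes as independent draws.

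Coordinates are 1-based. Ensembl 115 gave gene records, whose start often marks a trans-splice site in worms, and the RefSeq genome gave sequence. Summits in different lists were matched within 100 bp. Identity of coding sequences came from global alignment (biopython 1.88). The functions, run in Python 3.11.15, recovered planted peaks and motifs in simulated data. No significance test was made, since there is 1 group without a control. The members and gene lists were chosen with earlier results of these data known. Genes named were the 10 members, other kinesins with an IDR peak at the 5' end, the 3 strongest of each further list, genes sharing a member's summit and the neighbours of the strongest member peak in signal order. Genes completing a small count, klp-6, klp-12, kap-1, syd-2 and klc-1 were named after their values were seen. Alternatives were the window, the transcript start, the nearest gene, stricter peak sets, single replicates, the matching distance, ranking by q and the motif window.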

Additional observations from a re-analysis of the deposited data

How the results depend on the processing

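No paired analysis was possible because there is only 1 group. The count of 5 kinesin genes with an IDR peak at the 5' end moved to 3 within 250 bp, with the nearest gene only and with the stronger 50% of peaks, and to 2 with peaks in the top 3295 of all 3 replicates. The spindle count moved from 4 to 2 under the first 3 of these and to 1 under the last. With each replicate left out in turn, IDR peaks had to match the top 3295 of both others. The IDR list itself still came from all 3 replicates. The counts were then 3 for all members and 2 for spindle kinesins in every case, but the genes changed. Only klp-19 and unc-116 were called each time, joined by klp-15, bmk-1 or klp-16 without replicate 1, 2 or 3. The spindle minus transport difference of 41.7 percentage points was 8.33 within 250 bp, with the nearest gene only, with the stronger 50% and without any 1 replicate, and it reversed to -8.33 with peaks in the top 3295 of all replicates. These sets hold fewer peaks or fewer gene assignments by construction. In the IDR list the transport count stayed at 1 under each alternative run. The pooled relaxed count lay between 4 and 9, and there the 2 groups' shares were equal within 250 bp (50% each) and reversed around any transcript start (83.3% spindle, 100% transport). E2F-like matches at the 5 summits went from 1 to 2 within 100 bp. The number of the 5 peaks in the top 3295 of all replicates was 2 at a match distance of 50 or 100 bp and 3 at 250 bp or when ranked by q, where many peaks tie. Unknown depth limits what a missing peak at osm-3, klp-11 or klp-7 shows.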
